A study of Mus musculus with 9 samples.

Results

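The B class of ephrin signalling was followed in sorted touch and muscle sensory neurons of newborn mice through 8 genes, taken by name from the 23038 genes of the authors' deposited tables. They are the receptor genes Ephb1, Ephb2, Ephb3, Ephb4 and Ephb6 and the ligand genes Efnb1, Efnb2 and Efnb3, and all 8 were found and tested. EphB receptors are tyrosine kinases on the cell surface, and B-class ephrins are their membrane-spanning ligands on neighbouring cells. Contact sets off a signal in the receptor-bearing cell (forward) and another through the cytoplasmic tail of the ephrin (reverse). In the nervous system the family is known for contact repulsion of growing axons, target choice and synapse formation, and in blood vessels for keeping arterial and venous cells apart.

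The neurons came from dorsal root ganglia, which hold the cell bodies of body sensation, and were isolated by fluorescence-activated sorting. Rx3-/-;PV:tdT neurons (mutant PV below) were homozygous for a mutant allele of Runx3, a transcription factor that proprioceptors need to survive, and carried Cre driven by the parvalbumin gene with a Cre-dependent tdTomato reporter. The labels name them rapidly adapting low-threshold mechanoreceptors (RA-LTMRs, which sense touch). Rx3+/+;PV:tdT neurons (wild-type PV) carried the same Cre and reporter without the Runx3 mutation and are labelled as proprioceptors, which sense muscle stretch, together with RA-LTMRs. TrkC:GFP neurons were marked by a transgene on a bacterial artificial chromosome and are labelled as SA-LTMRs, the slowly adapting touch receptors, mixed with proprioceptors. The reporter is called Ai14 in the sample labels and Ai9 in the series' design text. All animals were of a mixed C57/Sv129 background and both sexes. Each group had 3 libraries: mutant PV pups at postnatal days 3, 0 and 0 (1, 1 and 4 animals), wild-type PV pups at days 6, 4 and 3 (4, 3 and 3 animals), and TrkC:GFP pups at days 6, 2 and 1 (4, 2 and 4 animals). Group, age and, for TrkC:GFP, reporter line cannot be told apart.

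Reads per library were recovered from the deposited group values, so the libraries below are known by depth within their group (deepest, middle, shallowest) and not by replicate number or age. The library totals (M, mega, reads) were 12.8, 12.2 and 4.51 M in mutant PV, 13.7, 12.2 and 11.6 M in wild-type PV and 12.2, 10.5 and 7.78 M in TrkC:GFP. Runx3 stood at 12.5, 16.6 and 11.3 RPKM (reads per kilobase of gene length and M reads) in mutant PV, 34.6, 30.2 and 26.2 RPKM in wild-type PV and 32.1, 34.1 and 35.0 RPKM in TrkC:GFP. Reads over the whole gene were counted, so this does not show whether the disrupted part was transcribed. All 6 proprioceptor markers were called lower, and all 6 RA-LTMR markers higher, in mutant PV than in each other group. The libraries did not match the animal numbers in the labels in 1 respect. Xist, expressed from the inactive X chromosome of females, and the Y-linked Ddx3y had 2964 and 496 reads in the deepest mutant PV library and 4519 and 338 reads in the middle one. The shallowest had 0 Xist and 238 Ddx3y reads. At least 1 library labelled as a single animal therefore held RNA of both sexes. The calls for Efnb1 and Ephb3 are given below also without each library, and counts of called genes without each library follow in the closing section.

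Pairwise comparisons of the 3 groups were deposited, and a gene was called where the authors' edgeR p-value, adjusted by Benjamini-Hochberg over all 23038 genes, was under 0.05. Between wild-type and mutant PV neurons, 2 of the 8 genes were called, Efnb1 and Ephb3, both higher in mutant PV. Of all genes, 16.4% were called in that comparison in either direction, 8.57% as higher in mutant PV and 7.82% as higher in wild-type PV. Between TrkC:GFP and mutant PV none of the 8 was called, against 10.1% of all genes (4.2% higher in mutant PV and 5.87% higher in TrkC:GFP). Between wild-type PV and TrkC:GFP none was called either, against 2.78% of all genes (0.699% higher in wild-type PV and 2.08% higher in TrkC:GFP). The limma test on recovered reads called 1 of the 8 genes between mutant and wild-type PV (25.5% of all genes fitted), 1 between mutant PV and TrkC:GFP (19.4%) and 0 between wild-type PV and TrkC:GFP (0.21%). In bulk RNA, fewer cells of a type and less RNA per cell cannot be told apart.

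The ligands were the abundant side of the system. Summed over the 3 ephrin-B genes, the level per length was 55.7 to 72.8 RPKM in mutant PV, 50.9 to 58.5 RPKM in wild-type PV and 44.8 to 49.5 RPKM in TrkC:GFP. Summed over the 5 EphB genes it was 5.71 to 6.65 RPKM in mutant PV, 4.24 to 4.45 RPKM in wild-type PV and 5.18 to 6.55 RPKM in TrkC:GFP. The lowest EphB total of mutant PV thus lay above the highest of wild-type PV, and the TrkC:GFP totals overlapped those of mutant PV. Efnb2 made up 94.4% to 96.2% of the ephrin-B total in mutant PV, 97.8% to 98.7% in wild-type PV and 95.4% to 99.1% in TrkC:GFP. Ephb2 was the leading receptor, with 37.2% to 43.0% of the EphB total in mutant PV, 46.6% to 60.4% in wild-type PV and 47.5% to 51.5% in TrkC:GFP.

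**Figure D1:**
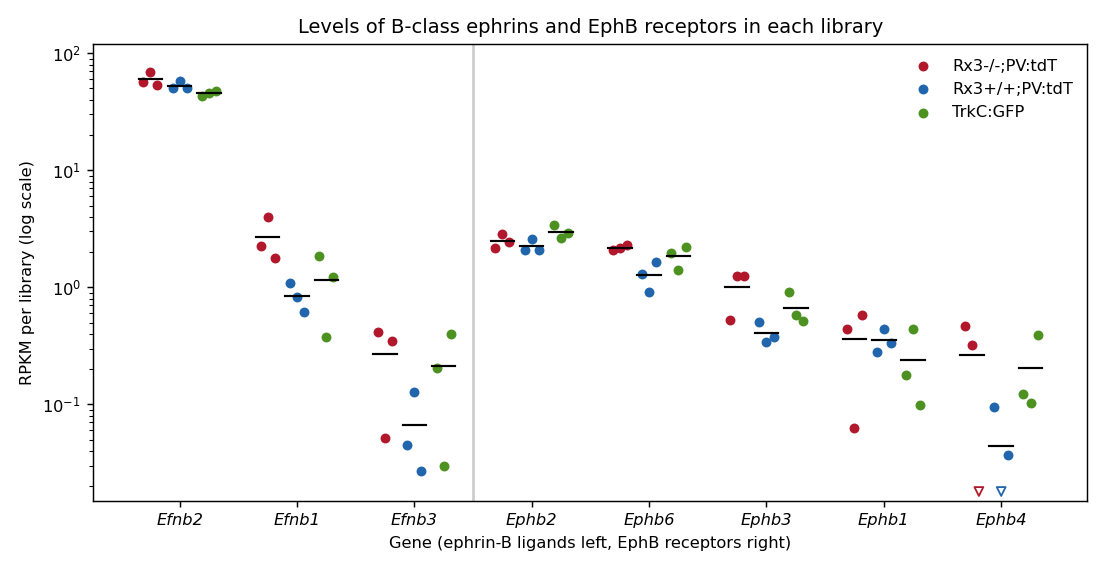
RPKM per library on a log axis for the 8 genes, with mutant PV (Rx3-/-;PV:tdT), wild-type PV (Rx3+/+;PV:tdT) and TrkC:GFP from left to right; points are libraries, bars are means, and open triangles mark the 2 libraries without Ephb4 reads. Efnb2 lies at 42.7 RPKM or more in all 9 libraries, and the highest value of any other gene is 4.01 RPKM (Efnb1 in the middle mutant PV library).

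Below Efnb2 the order of the mean levels depended on the group. In mutant PV it ran Efnb1, Ephb2, Ephb6, Ephb3, Ephb1, Efnb3 and Ephb4, and the libraries of Efnb1, Ephb2 and Ephb6 overlapped. In wild-type PV and in TrkC:GFP it ran Ephb2, Ephb6, Efnb1, Ephb3, Ephb1, Efnb3 and Ephb4, with Ephb2 apart from the rest. From Ephb6 down to Ephb4, the libraries of neighbours in this order overlapped in TrkC:GFP except for Ephb3 with Ephb1, and in wild-type PV except for Efnb1 with Ephb3 and Ephb1 with Efnb3. In mutant PV those from Ephb3 down overlapped.

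The 3 ligand genes share the end of their coding sequence, which encodes the part of the cytoplasmic tail that carries reverse signals and binds PDZ-domain proteins. It is shown here because several of the signalling genes described below encode proteins that act on this tail. Each line gives the last 90 coding bases including the stop codon, 5′ to 3′ on the coding strand (GRCm38), from chrX:99147438-99147527 (plus strand) for Efnb1, chr8:8620588-8620677 (minus strand) for Efnb2 and chr11:69555860-69555949 (minus strand) for Efnb3. Capitals mark the 70 bases (77.8%) identical in all 3 genes.
Efnb1: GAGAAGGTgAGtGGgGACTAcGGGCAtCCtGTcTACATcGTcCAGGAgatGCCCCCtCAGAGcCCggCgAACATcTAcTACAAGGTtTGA
Efnb2: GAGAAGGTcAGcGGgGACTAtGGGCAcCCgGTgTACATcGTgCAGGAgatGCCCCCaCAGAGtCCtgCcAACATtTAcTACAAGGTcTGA
Efnb3: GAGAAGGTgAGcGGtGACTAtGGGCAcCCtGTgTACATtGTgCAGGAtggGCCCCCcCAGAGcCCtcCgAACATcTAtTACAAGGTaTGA
Efnb1 and Efnb2 were identical at 77 of the 90 bases, and Efnb1 and Efnb3 at 75. The longest exact run shared by the transcripts of any 2 of the 8 genes was 44 bases (Ephb1 and Ephb3), with a median of 15 over the 28 pairs, against reads of 100 bases.

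Efnb2 (chromosome 8, 8617235 to 8661242, GRCm38.p6), the ephrin of arteries and of many neurons, was at 56.9, 68.8 and 53.6 RPKM in the deepest, middle and shallowest mutant PV library. It was at 50.8, 57.5 and 50.3 RPKM in wild-type PV and at 42.7, 45.9 and 47.9 RPKM in TrkC:GFP. The mutant PV libraries lay above all TrkC:GFP libraries and overlapped those of wild-type PV, which also lay above all TrkC:GFP libraries. At least 94.8% of all genes lay below Efnb2 in every group, where it had rank 816 of 23038 in mutant PV, 1030 in wild-type PV and 1200 in TrkC:GFP. Its coefficient of variation over the 9 libraries, 14.7%, was the lowest of the 8 genes. In the authors' deposited table the log2 fold change of TrkC:GFP over mutant PV was -0.40 (adjusted p = 0.223), a level 1.31 times as high in mutant PV. With limma the estimate was -0.41 (SE 0.12, adjusted p = 0.0325), so the call depended on the test. The authors' deposited fold change of wild-type PV over mutant PV was -0.18 (log2, adjusted p = 0.665), with a limma 95% interval of -0.44 to 0.07. That of wild-type PV over TrkC:GFP was 0.22 (log2, adjusted p = 0.581 in the authors' deposited table), with an interval of -0.04 to 0.48.

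Efnb1 (chromosome X, 99136061 to 99149022), a ligand known for sorting cells at tissue boundaries, gave the smallest adjusted p of the family. It was at 2.27, 4.01 and 1.77 RPKM in mutant PV (95, 159 and 26 reads), 1.09, 0.834 and 0.610 RPKM in wild-type PV (49, 33 and 23 reads) and 1.86, 0.379 and 1.22 RPKM in TrkC:GFP (74, 13 and 31 reads). Every mutant PV library lay above every wild-type PV library, and the deepest TrkC:GFP library lay above the shallowest mutant PV library. The means were 2.68 ± 1.18 RPKM in mutant PV, 0.846 ± 0.243 RPKM in wild-type PV and 1.15 ± 0.742 RPKM in TrkC:GFP (SD, n = 3 each). By the authors' deposited table Efnb1 was 3.15-fold higher in mutant than in wild-type PV, a log2 fold change of -1.65 written as wild-type over mutant (adjusted p = 0.00157). It was the only one of the 8 genes that the authors' own flag marked in these comparisons. The limma estimate was -1.70 (SE 0.49, 95% interval -2.76 to -0.64, adjusted p = 0.0230). It was 0.0291 without the deepest and 0.0189 without the shallowest mutant PV library. The call was lost without the middle mutant PV library (0.0806) or without the deepest, middle or shallowest wild-type PV library (0.0535, 0.0736 and 0.0854). For TrkC:GFP over mutant PV the authors' deposited log2 fold change was -1.21 (adjusted p = 0.180; limma -1.49, adjusted p = 0.0526). For wild-type PV over TrkC:GFP it was -0.44 in the authors' deposited table (adjusted p = 0.924), with a limma interval of -1.46 to 1.03.

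Because Efnb1 is X-linked, the levels of Xist stand beside it. Xist was at 12.9, 20.7 and 0 RPKM in mutant PV, 6.25, 7.75 and 8.83 RPKM in wild-type PV and 10.5, 4.15 and 0.0502 RPKM in TrkC:GFP. The libraries had the same order for Xist and Efnb1 in mutant PV, the opposite order in wild-type PV and another order in TrkC:GFP. The shallowest mutant PV library, with no Xist read, had more Efnb1 than any wild-type PV library. The part of sex in the Efnb1 difference was not tested.

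Efnb3 (chromosome 11, 69554092 to 69561150), known as a midline barrier for spinal and corticospinal axons, was near the detection limit. It had 17, 2 and 5 reads in mutant PV, 2, 5 and 1 in wild-type PV and 8, 1 and 10 in TrkC:GFP. The levels were 0.412, 0.0511 and 0.345 RPKM in mutant PV, 0.0453, 0.128 and 0.0269 RPKM in wild-type PV and 0.204, 0.0295 and 0.400 RPKM in TrkC:GFP, and the groups overlapped throughout. The authors' deposited log2 fold change of wild-type over mutant PV was -1.67 (adjusted p = 0.225), and the limma interval, -3.82 to 0.71, shows how little these reads can resolve.

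**Figure D2:**
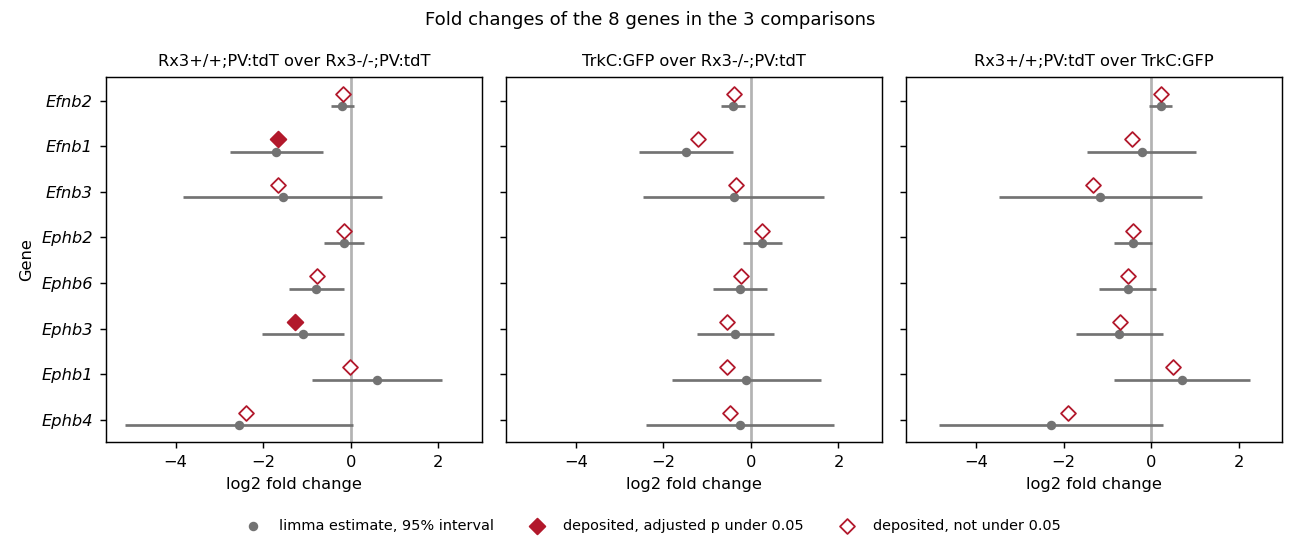
Log2 fold changes of the 8 genes in the comparisons of wild-type PV over mutant PV, TrkC:GFP over mutant PV and wild-type PV over TrkC:GFP; diamonds are the authors' deposited values (filled where the adjusted p was under 0.05), and grey points with lines are limma estimates with 95% intervals. The 2 filled diamonds are Efnb1 (-1.65) and Ephb3 (-1.27), and the intervals are widest for Efnb3 and Ephb4.

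Among the receptors, Ephb2 (chromosome 4, 136647536 to 136836326), which guides commissural axons and acts at excitatory synapses, was the highest in mean RPKM in every group. It was at 2.18, 2.86 and 2.44 RPKM in mutant PV, 2.06, 2.61 and 2.07 RPKM in wild-type PV and 3.38, 2.65 and 2.92 RPKM in TrkC:GFP. All wild-type PV libraries lay below all TrkC:GFP libraries, and mutant PV overlapped both groups. The authors' deposited log2 fold change of wild-type PV over TrkC:GFP was -0.41 (adjusted p = 0.408), with a limma interval of -0.85 to 0.01. Against mutant PV the authors' deposited values were -0.16 for wild-type PV (adjusted p = 0.964) and 0.25 for TrkC:GFP (adjusted p = 0.872). The limma intervals of these, -0.60 to 0.29 and -0.18 to 0.71, leave room for changes of less than 2-fold in either direction.

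Ephb6 (chromosome 6, 41603834 to 41620509), a receptor whose kinase domain is inactive, was at 2.09, 2.16 and 2.30 RPKM in mutant PV, 1.30, 0.919 and 1.63 RPKM in wild-type PV and 1.96, 1.41 and 2.22 RPKM in TrkC:GFP. Mutant PV lay above wild-type PV in all libraries and overlapped TrkC:GFP. The authors' deposited log2 fold change of wild-type over mutant PV was -0.76 (adjusted p = 0.140), and limma gave -0.79 (SE 0.29, adjusted p = 0.0651). The authors' deposited values were -0.23 for TrkC:GFP over mutant PV (adjusted p = 1) and -0.53 for wild-type PV over TrkC:GFP (adjusted p = 0.497).

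Ephb3 (chromosome 16, 21204620 to 21223309), a receptor that acts with Ephb2 in axon guidance, was at 0.523, 1.25 and 1.24 RPKM in mutant PV (42, 95 and 35 reads). It was at 0.501, 0.342 and 0.374 RPKM in wild-type PV (43, 26 and 27 reads) and at 0.916, 0.577 and 0.514 RPKM in TrkC:GFP (70, 38 and 25 reads). The deepest mutant PV library lay just above the deepest wild-type PV library and the other mutant PV libraries well above it. By the authors' deposited table Ephb3 was 2.41-fold higher in mutant than in wild-type PV, a log2 fold change of -1.27 written as wild-type over mutant (adjusted p = 0.0385). With limma the estimate was -1.09 (SE 0.44, 95% interval -2.03 to -0.14) and the adjusted p, 0.0850, missed the threshold. Leaving out the deepest mutant PV library gave a limma adjusted p of 0.00723, and leaving out each other library gave 0.0896 to 0.251. The authors' deposited log2 fold change of TrkC:GFP over mutant PV was -0.55 (adjusted p = 0.698). Wild-type PV libraries also lay below all TrkC:GFP libraries, with -0.72 for wild-type PV over TrkC:GFP in the authors' deposited table (log2, adjusted p = 0.338).

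Ephb1 (chromosome 9, 101922128 to 102354693), which turns retinal axons at the optic chiasm, was at 0.444, 0.0633 and 0.581 RPKM in mutant PV, 0.281, 0.444 and 0.333 RPKM in wild-type PV and 0.177, 0.439 and 0.0991 RPKM in TrkC:GFP. The 3 groups overlapped, and the middle mutant PV library, with 5 reads, was the lowest of all. None of its 3 authors' deposited adjusted p values was under 0.869. A lincRNA gene on the opposite strand, Gm26846, overlaps 2.17% of the exon bases of Ephb1. For Ephb4, described next, the protein-coding gene Zan on the opposite strand overlaps 0.711%. Whether counting used strand is not stated.

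Ephb4 (chromosome 5, 137350109 to 137374522), the receptor of veins and the main partner of ephrin-B2 there, had 28, 18 and 0 reads in mutant PV, 6, 0 and 2 in wild-type PV and 7, 5 and 14 in TrkC:GFP. The levels were 0.470, 0.319 and 0 RPKM in mutant PV, 0.0942, 0 and 0.0373 RPKM in wild-type PV and 0.123, 0.102 and 0.388 RPKM in TrkC:GFP. Every wild-type PV library lay below every TrkC:GFP library, and the shallowest mutant PV library had no read where the other mutant PV libraries were above wild-type PV. The authors' deposited log2 fold change of wild-type over mutant PV was -2.40 (adjusted p = 0.0531), and that of wild-type PV over TrkC:GFP was -1.91 (adjusted p = 0.166). The adjusted p of the comparison with mutant PV was 0.0341 when genes with a deposited mean log2 CPM of 0 or less were left out of the adjustment. With limma it was 0.140, and 0.0158 without the shallowest mutant PV library.

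Markers of endothelial cells, in which Ephb4 and Efnb2 are classically expressed, differed between the same libraries. The 10 endothelial markers summed to 8.86, 13.1 and 2.46 RPKM in mutant PV, 2.89, 3.20 and 4.29 RPKM in wild-type PV and 3.31, 3.00 and 2.75 RPKM in TrkC:GFP. In the shallowest mutant PV library, of 4.51 M reads, 7 of the 10 were at 0, and none was at 0 in its other 2 libraries. Tie1 and Cldn5, defining endothelial genes, were at 0 in all wild-type PV and TrkC:GFP libraries, and Emcn in all TrkC:GFP libraries. In mutant PV, Tie1 had only 14, 10 and 0 reads and Cldn5 10, 15 and 0. Plvap went the other way, at 0.618, 0.489 and 0.110 RPKM in mutant PV and 0.650, 1.02 and 0.557 RPKM in wild-type PV. Its authors' deposited log2 fold change was 0.63 for wild-type over mutant PV (adjusted p = 0.604). Of the 10, 3 were called higher in mutant than in wild-type PV, 2 higher in mutant PV than in TrkC:GFP and 1 lower in wild-type PV than in TrkC:GFP. For these and the marker counts below, the shares of all genes called were 8.57% higher and 7.82% lower in mutant than in wild-type PV. They were 4.2% higher and 5.87% lower in mutant PV than in TrkC:GFP, and 2.08% lower in wild-type PV than in TrkC:GFP. In the shallowest mutant PV library the markers with reads included Pecam1, at 2.08 RPKM. Ephb4 had reads in the 2 mutant PV libraries with the higher marker sums, whereas in TrkC:GFP its highest level, 0.388 RPKM, stood in the library with the lowest sum. Efnb2 had the same order as the marker sum in mutant PV, the opposite order in TrkC:GFP and another order in wild-type PV. Efnb1 had the same order as the marker sum in mutant PV, the opposite order in wild-type PV and another order in TrkC:GFP. In the mutant PV library where 7 markers were at 0 it was above all wild-type PV libraries. Ephb3 did not follow that order, at 1.24 RPKM in the library with the lowest marker sum and 0.523 RPKM in the deepest. Mural markers summed to 2.04 to 4.29 RPKM in mutant PV, 0.866 to 1.66 RPKM in wild-type PV and 1.70 to 2.18 RPKM in TrkC:GFP. Fibroblast and meningeal markers summed to 5.44 to 19.98 RPKM in mutant PV, 5.97 to 10.3 RPKM in wild-type PV and 3.18 to 7.30 RPKM in TrkC:GFP. The higher sums of mutant PV came from Mgp (14.0, 17.3 and 0.740 RPKM), and 4 of the 7 were called lower in mutant than in wild-type PV against 2 called higher, with a median log2 fold change of 2.02 for wild-type over mutant PV in the authors' deposited table. Markers of Schwann cells and satellite glia summed to 588 to 707 RPKM in mutant PV, 336 to 477 RPKM in wild-type PV and 313 to 608 RPKM in TrkC:GFP. The 5 nociceptor markers with recovered reads summed to 68.9 to 246 RPKM in mutant PV. Their sums were 78.2 to 84.5 RPKM in wild-type PV and 36.2 to 59.2 RPKM in TrkC:GFP. Calca alone was at 99.1, 4.14 and 188 RPKM in mutant PV. P2rx3, left out of these sums, was at 204 RPKM in mutant PV, 32.5 RPKM in wild-type PV and 37.3 RPKM in TrkC:GFP as deposited. Of all 6 nociceptor markers, 4 were called higher and 2 lower in mutant than in wild-type PV. Against TrkC:GFP, 4 were called higher in mutant PV and 0 lower. Beyond the levels given, the part of these cells in the results for Efnb1, Efnb2, Ephb3 and Ephb4 was not tested.

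**Figure D3:**
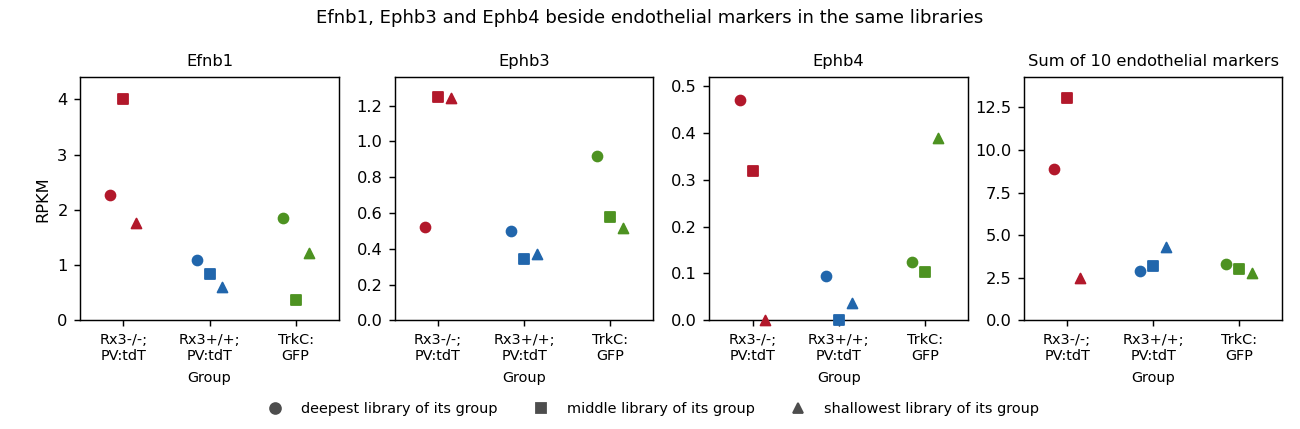
RPKM of Efnb1, Ephb3 and Ephb4 and the summed RPKM of the 10 endothelial markers in each library, by group, with the deepest library as a circle, the middle one as a square and the shallowest as a triangle; each panel has its own axis starting at 0. The shallowest mutant PV library has no Ephb4 read and a marker sum of 2.46 RPKM, while its Efnb1 (1.77 RPKM) and Ephb3 (1.24 RPKM) lie above every wild-type PV library.

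All 8 deposited fold changes of wild-type over mutant PV were negative, with a median of -1.01 (log2) beside 0 for all genes, and 7 of 8 were negative for TrkC:GFP over mutant PV, with a median of -0.43 beside 0, in the authors' deposited tables. These 2 comparisons share the mutant PV libraries. Of the genes with a mean log2 CPM above 0, 53.5% and 43.3% were negative in these comparisons, with medians of -0.05 and 0.08, by the authors' deposited tables. The Ephb1 value of wild-type over mutant PV, -0.02 in the authors' deposited table, was 0.60 with limma. For wild-type PV over TrkC:GFP, 6 of 8 were negative in the authors' deposited table, with a median of -0.49 beside -0.03, and 63.3% of genes with a mean log2 CPM above 0 were negative. The libraries of mutant and wild-type PV did not overlap for 3 of the 8 genes, against 35.6% of genes with recovered reads. Those of mutant PV and TrkC:GFP did not overlap for 1 gene, against 28.7%, and those of wild-type PV and TrkC:GFP for 4 genes, against 22.0%.

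RefSeq promoter sequences (GRCm38.p6) were matched to 7 of the 8 genes. The 250 bases before the RefSeq transcript start are shown for the called genes Efnb1 and Ephb3, and for Ephb1. Of the 7, only Ephb1 had the core motif of Runx factors in the form TGTGGT. Searched on both strands were the Runx core (TGTGGT), the GC box (GGGCGG) and the CCAAT box (CCAAT), none of which overlap in these lines, and capitals mark the matches. The Runx core form TGCGGT was not searched, and its reverse complement ACCGCA stands unmarked in the Efnb1 line. The lines run 5′ to 3′ on the gene's strand, from chrX:99135811-99136060 (plus), chr16:21204545-21204794 (plus) and chr9:102354694-102354943 (minus). The Ephb3 window lies in part inside the gene coordinates given above, and the Efnb1 and Ephb1 windows end where the gene begins. Of the windows not shown but counted below, those of Ephb2 and Ephb6 lie wholly inside the gene coordinates.
Efnb1: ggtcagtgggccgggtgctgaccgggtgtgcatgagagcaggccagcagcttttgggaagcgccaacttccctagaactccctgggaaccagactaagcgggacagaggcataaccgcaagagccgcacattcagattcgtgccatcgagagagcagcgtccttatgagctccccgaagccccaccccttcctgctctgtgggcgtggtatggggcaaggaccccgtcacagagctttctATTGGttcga
Ephb3: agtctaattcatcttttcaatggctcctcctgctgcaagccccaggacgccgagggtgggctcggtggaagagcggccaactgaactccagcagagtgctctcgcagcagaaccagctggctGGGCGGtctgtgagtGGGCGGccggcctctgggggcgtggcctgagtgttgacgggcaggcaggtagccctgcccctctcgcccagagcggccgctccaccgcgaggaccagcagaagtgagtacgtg
Ephb1: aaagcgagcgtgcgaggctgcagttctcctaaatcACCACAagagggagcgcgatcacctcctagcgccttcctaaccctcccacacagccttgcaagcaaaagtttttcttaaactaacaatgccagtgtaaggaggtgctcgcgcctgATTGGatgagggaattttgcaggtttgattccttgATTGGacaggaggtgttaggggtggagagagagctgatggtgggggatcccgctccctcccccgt
Efnb1 had 1 CCAAT box and no GC box, Ephb3 had 2 GC boxes and no CCAAT box, and the 2 genes called in the same direction thus shared none of these motifs in this window. A GC box was found in 4 of the 7 promoters and a CCAAT box in 5, against 32.7% and 33.8% of 32851 promoters. The Runx core in the form TGTGGT was found in 14.0% of them. The 7 windows were 54.0% (Ephb1) to 76.8% (Ephb6) G or C, beside a median of 52.4% over all promoters. The part of base composition in these counts was not tested.

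The pathway around the receptors and ligands was described through a list of 40 adaptors, exchange factors, PDZ-domain partners, kinases and proteases, of which 39 were found. Called lower in mutant PV than in wild-type PV were 7, and 5 were called higher, together 30.8% of the 39 against 16.4% of all genes. Between TrkC:GFP and mutant PV 7 were called lower in mutant PV and 2 higher, 23.1% against 10.1%. All genes here include 4970 without reads in any group, which none of the 39 were. None was called between wild-type PV and TrkC:GFP. The list's median log2 fold change was 0.11 for wild-type over mutant PV and 0.17 for TrkC:GFP over mutant PV, beside 0 for all genes in the authors' deposited tables.

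On the ligand side, Rgs3, whose PDZ-domain form binds the ephrin-B tail and limits G-protein signalling, was at 6.21, 5.89 and 3.75 RPKM in mutant PV, 1.32, 0.875 and 1.37 RPKM in wild-type PV and 1.61, 0.998 and 1.53 RPKM in TrkC:GFP. Its libraries did not overlap between mutant PV and the other groups. In the authors' deposited tables its log2 fold change was -2.15 for wild-type over mutant PV (adjusted p = 6.8e-13) and -1.94 for TrkC:GFP over mutant PV (adjusted p = 5.5e-09). Pard6b, a cell polarity protein of a family that binds ephrin-B1, was lower in mutant PV, at 3.48, 4.67 and 1.89 RPKM against 9.92, 8.74 and 8.75 RPKM in wild-type PV and 12.0, 7.73 and 11.1 RPKM in TrkC:GFP. Its authors' deposited log2 fold change was 1.40 for wild-type over mutant PV (adjusted p = 2.9e-05).

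On the receptor side, some adaptors and an exchange factor were lower in mutant PV. Others of the listed adaptors and exchange factors were not called, or were called higher. The exchange factor Vav3 was at 6.002, 7.41 and 7.03 RPKM in mutant PV, 16.9, 20.2 and 17.6 RPKM in wild-type PV and 17.3, 15.4 and 16.4 RPKM in TrkC:GFP, with an authors' deposited log2 fold change of 1.42 for wild-type over mutant PV (adjusted p = 3.8e-12). The adaptor Grb10 was at 4.73, 2.86 and 3.17 RPKM in mutant PV, 9.59, 9.995 and 9.34 RPKM in wild-type PV and 12.3, 9.84 and 12.7 RPKM in TrkC:GFP. Its authors' deposited log2 fold change was 1.68 for TrkC:GFP over mutant PV (adjusted p = 3.5e-09). The adaptor Nck1 was at 6.13, 11.5 and 6.35 RPKM in mutant PV, 17.8, 20.03 and 17.6 RPKM in wild-type PV and 17.5, 18.8 and 17.1 RPKM in TrkC:GFP. Shb, an SH2 adaptor, had 3, 2 and 0 reads in mutant PV, 31, 60 and 43 in wild-type PV and 44, 27 and 40 in TrkC:GFP. Its authors' deposited adjusted p was 2.0e-07 for wild-type over mutant PV. Going the other way, Mllt4 (afadin, a junction protein that binds Eph receptor tails) was at 23.7, 25.1 and 19.0 RPKM in mutant PV, 12.8, 8.62 and 11.8 RPKM in wild-type PV and 11.6, 8.45 and 14.0 RPKM in TrkC:GFP. For each of Vav3, Grb10, Nck1, Shb and Mllt4 the mutant PV libraries did not overlap those of either other group.

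**Figure D4:**
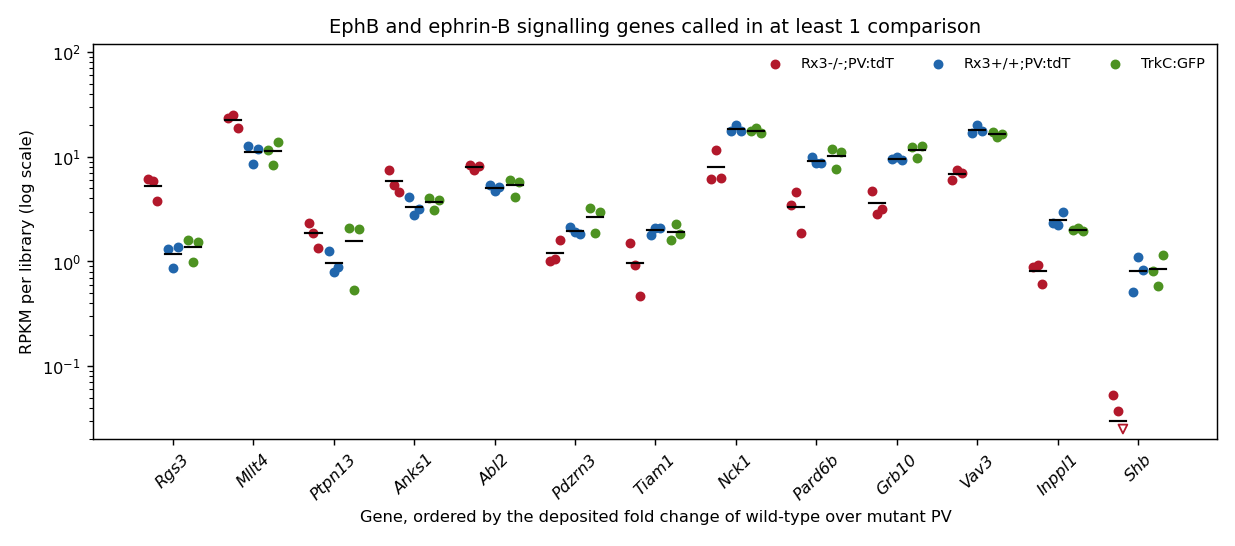
RPKM per library on a log axis for the 13 signalling genes called in at least 1 comparison, ordered by the authors' deposited fold change of wild-type over mutant PV, with mutant PV, wild-type PV and TrkC:GFP from left to right; bars are means and the open triangle marks the library without Shb reads. Mutant PV lies above the other groups for Rgs3 and Mllt4 at the left and below them for Vav3, Inppl1 and Shb at the right.

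The related A class was set beside the B class because Epha4 also binds B-class ephrins and ephrin-A5 also binds Ephb2. Of its 14 genes, 3 were called lower and 1 higher in mutant PV than in wild-type PV, together 28.6% against 16.4% of all genes. Likewise 3 were called lower and 1 higher in mutant PV than in TrkC:GFP, 28.6% against 10.1%. All genes here include 4970 without reads in any group, which none of the 14 were. Epha4 was at 1.94, 1.17 and 4.13 RPKM in mutant PV, 8.98, 8.76 and 8.67 RPKM in wild-type PV and 6.25, 8.14 and 5.73 RPKM in TrkC:GFP. Its authors' deposited log2 fold change was 1.89 for wild-type over mutant PV (adjusted p = 1.3e-06) and 1.49 for TrkC:GFP over mutant PV (adjusted p = 0.00152). Efna5, the ligand gene, was at 47.0, 36.9 and 31.8 RPKM in mutant PV, 18.3, 12.0 and 18.5 RPKM in wild-type PV and 18.3, 17.1 and 17.96 RPKM in TrkC:GFP. Its authors' deposited log2 fold change was -1.25 for wild-type over mutant PV (adjusted p = 2.9e-07) and -1.12 for TrkC:GFP over mutant PV (adjusted p = 2.9e-06). The remaining calls, named here after their values were seen, were Epha5, Epha6 and Epha7, lower in mutant PV by less than 2-fold in 1 or both comparisons, and Epha10, lower in wild-type PV than in TrkC:GFP. Epha10 was not called by limma (adjusted p = 0.388).

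**Figure D5:**
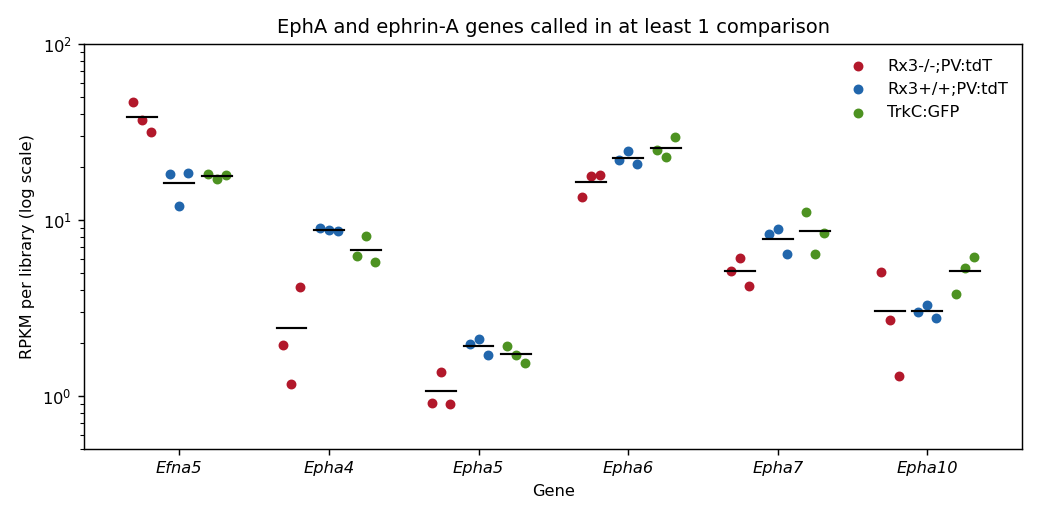
RPKM per library on a log axis for the 6 A-class genes called in at least 1 comparison, with mutant PV, wild-type PV and TrkC:GFP from left to right; points are libraries and bars are means. All mutant PV libraries lie above the others for Efna5, at 31.8 RPKM or more, and below them for Epha4, at 4.13 RPKM or less.

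The receptor totals of the A and B classes stood in a different order by group. EphA receptors summed to 28.1 to 32.6 RPKM in mutant PV, 44.3 to 52.6 RPKM in wild-type PV and 47.8 to 53.9 RPKM in TrkC:GFP. The EphB totals, given above, overlapped between mutant PV and TrkC:GFP and were lowest in wild-type PV. Ephrin-A ligands summed to 39.9 to 53.1 RPKM in mutant PV, 17.4 to 24.7 RPKM in wild-type PV and 23.0 to 25.3 RPKM in TrkC:GFP. The difference between the classes was not tested.

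The genes whose 3 deposited fold changes lay nearest to those of Efnb1, among 3442 genes of like mean level, were Cyp4f16, Igsf8, Npl, B3gnt8 and Morn1. Their Euclidean distances over the 3 log2 fold changes, which derive from 3 groups, were 0.0950, 0.115, 0.115, 0.146 and 0.146 in the authors' deposited tables. Igsf8, an immunoglobulin-domain membrane protein, had authors' deposited log2 fold changes of -1.74 for wild-type over mutant PV and -1.27 for TrkC:GFP over mutant PV.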

How the data were processed

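Bulk RNA-seq of 9 libraries in 3 groups was available as 5 comparison tables. The submitters' processing notes name the mm10 build and edgeR. The aligner, the read counter, strand use and versions: not given in the sources used here. By the labels' protocols, cDNA was amplified ahead of poly-A TruSeq library preparation and single-end sequencing. Each table holds, as the authors deposited them, log2 values (fold change and mean log2 CPM), a p-value, its adjusted form, a flag score and an RPKM value for each group. TrkC:GFP values carry another name in 2 tables and were assigned because they equal those of its samples in a joined comparison. Of the deposited value columns, 2 were not used.

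The test was the authors' deposited edgeR p-value, Benjamini-Hochberg adjusted over 23038 genes. The design foresaw edgeR on counts per sample, which the tables do not hold. Each deposited RPKM value equalled the mean over 3 libraries of reads plus 1, scaled by gene length and library total. Solving for whole numbers (relative tolerance 1e-14) recovered reads per library for 22633 genes (98.2%), including all 8 described here. In data simulated from recovered genes, 3000 of 3008 came out right and 1 wrong. Genes that were not recovered, among them the highly expressed Ntrk3, Ret and P2rx3, were not simulated, so the simulation does not cover them. Library totals were the scale, and recovered reads made up 56.2% to 60.2% of them. RPKM per library, means and SDs were computed without the added read. As an alternative chosen after seeing the data, limma 3.58.1 with voom weights (R 4.3.3) was fitted to recovered reads of all 3 groups, for genes with a mean of at least 1 read a library, and tested on simulated data.

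All 8 genes were named. From the signalling and A-class lists, called genes with a fold change of at least 2 were named, at most 6 per list and comparison, smallest adjusted p first. Likeness took the 5 genes nearest to the member with the smallest adjusted p, with a mean log2 CPM within 1 of it. Members and lists were chosen with earlier results of these data known. Shared litters or sorting days are not recorded in the labels, and p-values cover the spread of these samples. Reads from amplified RNA are not independent molecules. Coordinates follow RefSeq for GRCm38.p6, the assembly of mm10. Alternatives were other thresholds and adjustments, pseudocounts of 0.1 and 1 in RPKM ratios, centring, the joined comparisons, limma without a filter and limma without each library.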

Additional observations from a re-analysis of the deposited data

How the results depend on the processing

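No paired analysis was possible because the tables hold no value tied to a replicate number, and leaving out replicates by number was not run for the same reason. Of the alternatives for single genes, 400 kept direction and side of the threshold, 11 gained and 18 lost a call, and 24 changed sign; of the counts, 98 stayed within 1.5 times and 46 did not. For wild-type over mutant PV, the 2 called genes became 1 at an adjusted p under 0.01, in the joined comparison and with limma with or without a filter, and 0 under Bonferroni. For TrkC:GFP over mutant PV the count of 0 became 1 in the joined comparison and with limma with or without a filter. Without 1 library at a time, limma called 0 to 2 of the 8 in each of these and 0 between wild-type PV and TrkC:GFP. Under Bonferroni the signalling genes called fell to 7 (wild-type over mutant PV, 12 as deposited) and 5 (TrkC:GFP over mutant PV, 9 as deposited), and without 1 library limma called 9 to 15 and 9 to 12. The 4 A-class genes called for wild-type over mutant PV became 2 at an adjusted p under 0.01, with a 2-fold minimum or under Bonferroni, and 2 to 6 without 1 library. The 4 for TrkC:GFP over mutant PV became 2, 2 and 1 under those settings, and 3 to 5 without 1 library. The 1 for wild-type PV over TrkC:GFP became 0 under them, in the joined comparison, with limma and without any library. The log2 fold changes that changed sign were all of genes not called in that comparison. Ephb1 in wild-type over mutant PV came to 0.035 after centring, 0.60 with limma and 0.59 without its filter. In the joined comparisons Ephb2 came to 0.060 over mutant PV, and Efnb1 and Ephb3 to 0.60 and 0.047 for both PV groups over TrkC:GFP. Without 1 library, TrkC:GFP over mutant PV ran from -1.42 to 0.52 for Efnb3, -1.19 to 0.58 for Ephb1 and -1.21 to 0.47 for Ephb4, wild-type over mutant PV from -0.48 to 1.28 for Ephb1, and wild-type PV over TrkC:GFP from -0.90 to 0.38 for Efnb1. Fewer samples or genes enter where libraries or low genes are left out; otherwise the cause was not tested. Efnb3 and Ephb4 had 8 reads each over the 3 wild-type PV libraries, which limits their precision.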
